A study of Mus musculus with 4 samples.

Results

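The transport, trimming and loading step of class I antigen presentation was described through 8 mouse genes, Tap1, Tap2, Tapbp, Tapbpl, Erap1, Calr, Canx and Pdia3. They were chosen by name for their role in this step, with earlier results of these data known. They make up 8 of the 55487 annotated genes in the count table. Each was found once by its Ensembl identifier and GRCm38 symbol, and 8 of 8 passed the filter on low counts. The RNA came from LPC-HRas, a mouse line labelled as liver cancer cells, left unstimulated and grown in the same serum-containing medium in both groups. The tested cells, of genotype UBXN9-overexpressing, gave libraries UBXN9 1 and UBXN9 2. The control-genotype cells gave libraries control 1 and control 2. How UBXN9 was raised, and whether the cells were a pool or 1 clone, is not given in the sources used here. The labels do not say whether the 2 libraries of a group came from separate cultures, so a p-value here reflects the spread among 4 libraries, which may be technical.

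Totals ran from 21814969 to 26292686 estimated counts per library. The unit of level is CPM, a count per library size after correction of that size by TMM, and a change means an adjusted p under 0.05 in the edgeR quasi-likelihood test over 13230 genes. Aspscr1, the mouse gene for UBXN9, had 392 and 380 CPM in the UBXN9 libraries and 92.1 and 115 CPM in the controls.

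Cell type markers also differed between the groups. Over all genes tested, 5.06% rose and 2.38% fell. Of 11 hepatocyte and biliary markers 6 were tested, 2 fell and 0 rose, with a median log2 fold change of -0.70. Alb had 0 counts in every library and Hnf4a at most 1. Krt18 and Krt19, keratin genes of epithelial cells, fell by 3.66 and 1.69 on the log2 scale (edgeR adjusted p = 0.00972 and 0.0294). Both were low. Krt18 had 7 and 3 counts in the UBXN9 libraries and 70 and 66 counts in the controls. Krt19 had 3.29 and 2.15 CPM in the UBXN9 libraries and 7.06 and 10.4 CPM in the controls. Afp, Apoa1 and Krt8, which were also tested, had at most 33 counts in any library, so the median rests largely on low counts. Sox9 was the most abundant of the list, at 194 and 208 CPM in the UBXN9 libraries and 168 and 174 CPM in the controls, and was not called (edgeR adjusted p = 0.447). Of 7 stellate and fibroblast markers tested, 2 rose and 0 fell, with 4 log2 fold changes above 0 and 3 below. Col1a1, a collagen gene, had 109 and 144 CPM in the UBXN9 libraries and 30.3 and 24.9 CPM in the controls (edgeR adjusted p = 0.00136), and Acta2, smooth muscle actin, rose 2.41-fold (edgeR adjusted p = 0.00784). Col3a1, another collagen gene, was the most abundant of the list and was not called (edgeR adjusted p = 0.711). It had 225 and 269 CPM in the UBXN9 libraries and 287 and 257 CPM in the controls. The stellate and fibroblast list summed to 594 and 711 CPM in the UBXN9 libraries and 526 and 474 CPM in the controls.

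Of 10 lymphoid markers Cd3e, Cd8a, Ncr1 and Nkg7 had 0 counts in every library, and 9 had at most 3. Lck, a lymphocyte kinase gene, carried the summed level of 11.0 and 9.65 CPM in the UBXN9 libraries and 5.23 and 4.72 CPM in the controls, and rose 2.08-fold (edgeR adjusted p = 0.0457). Summed myeloid markers came to 74.2 and 66.1 CPM in the UBXN9 libraries and 56.7 and 57.1 CPM in the controls, mostly Cd14, which was not called. Lyz2, a lysozyme gene of myeloid cells, had 3.14 and 3.09 CPM in the UBXN9 libraries and 1.11 and 0.635 CPM in the controls, and rose 3.53-fold (edgeR adjusted p = 0.0408). Clec4f had 0 counts and the pan-leukocyte gene Ptprc at most 3. Csf1r had 56 and 8 counts in the UBXN9 libraries and 12 and 14 in the controls, and was not called (edgeR adjusted p = 0.434). Itgam and Adgre1 had at most 6 and 4 counts, both in UBXN9 1. Summed endothelial markers came to 4.58 and 3.996 CPM in the UBXN9 libraries and 3.05 and 2.09 CPM in the controls, and 0 of 2 tested were called by edgeR, DESeq2 or limma-voom, with 1 higher at an unadjusted p under 0.05. The part of these marker differences in the results below was not tested.

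Class I molecules show peptides of cytosolic proteins at the cell surface. TAP1 and TAP2 form the transporter that moves these peptides into the endoplasmic reticulum, where the aminopeptidase ERAP1 trims them. Calnexin, encoded by Canx, holds new heavy chains. Tapasin, encoded by Tapbp, then tethers class I molecules to the transporter together with calreticulin (Calr) and the disulfide isomerase ERp57 (Pdia3), while the tapasin relative TAPBPR (Tapbpl) edits peptides outside that complex. The transporter, tapasin and ERAP1 are known to respond to interferons. Calreticulin, calnexin and ERp57 serve glycoprotein folding in general and are known to respond to stress of the endoplasmic reticulum.

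Raised UBXN9 was set against control to see which of these genes differ. Of the 8, 5 rose and 0 fell, where 5.06% of all genes tested rose and 2.38% fell, 7.44% in all. The genes that rose were both transporter subunits, both tapasins and the trimming peptidase. The 3 chaperones shared with general glycoprotein folding, Calr, Canx and Pdia3, did not pass. The log2 fold change ran from -0.11 for Pdia3 to 6.33 for Tap1, with a median of 1.33, against a median of -0.0056 over all genes tested. At an unadjusted p under 0.05 the count was also 5 higher and 0 lower, and so were the counts of DESeq2 and of limma-voom. Without control 2 the count was 4, as Erap1 no longer passed. In bulk RNA, more cells with a transcript and more transcript per cell cannot be told apart.

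**Figure D1:**
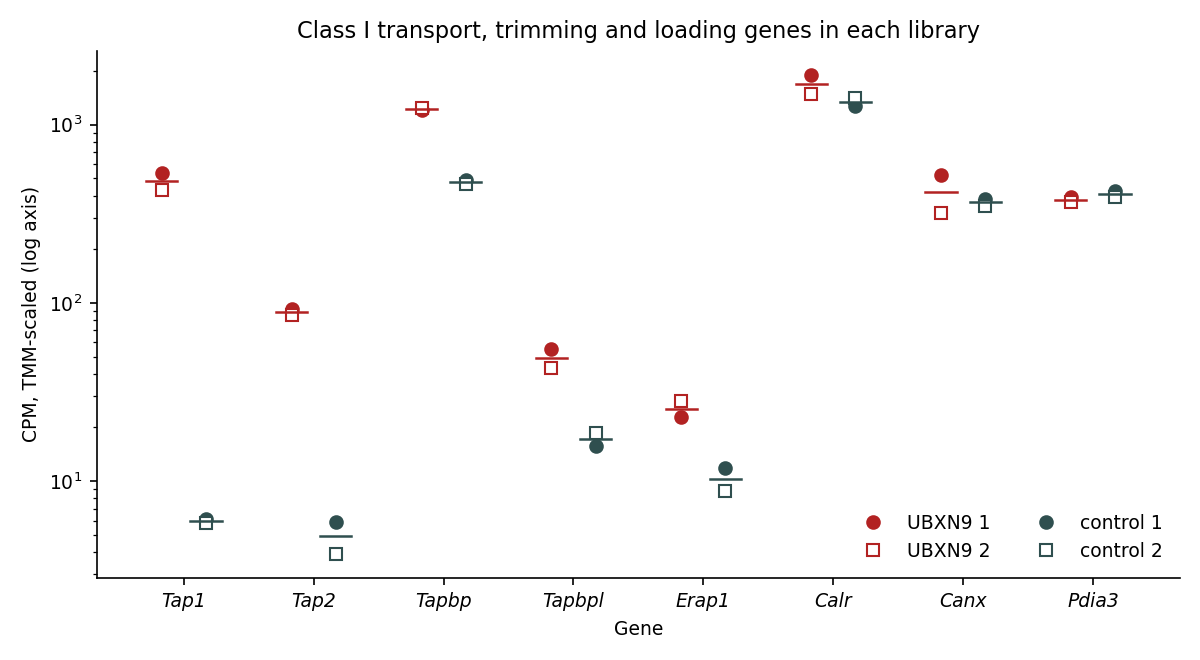
CPM of the 8 genes in each library on a log axis, with UBXN9 libraries in red and control libraries in dark grey, and a bar at the mean of each pair. The 5 genes on the left stand above their controls in both UBXN9 libraries, with Tap1 at 532 and 428 against 6.14 and 5.81 CPM, while the points of Canx overlap.

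Tap1 (ENSMUSG00000037321, chromosome 17, 34187553 to 34197225, plus strand, GRCm38) encodes the first transporter subunit. It had 10698 and 11352 counts in UBXN9 1 and UBXN9 2, against 161 and 128 counts in control 1 and control 2. On the CPM scale it stood at 532 and 428 in the UBXN9 libraries and at 6.14 and 5.81 in the controls. The 2 libraries of each group lay close together and the groups were far apart. The rise was 80.2-fold, with a 95% interval of 55.6 to 116 (log2 6.33, SE 0.22, edgeR adjusted p = 0.000220), and it ranked 1 by p among all genes tested.

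Tap2 (ENSMUSG00000024339, chromosome 17, 34203527 to 34216321, plus strand), whose product pairs with that of Tap1, had 92.0 and 86.0 CPM in the UBXN9 libraries and 5.88 and 3.90 CPM in the controls. The groups did not overlap, and the control libraries differed from each other by 1.51-fold. It rose 18.1-fold, with a 95% interval of 12.2 to 26.9 (log2 4.18, SE 0.24, edgeR adjusted p = 0.000262). Leaving out control 1 gave 4.50 on the log2 scale and leaving out control 2 gave 3.92, and both passed.

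The subunits were unequal in their rise. Per kilobase of merged exons, Tap1 stood at 3.997 and 3.44 times the level of Tap2 in the UBXN9 libraries, against 0.722 and 1.03 times in the controls. The ratio was therefore 4.30-fold higher in the UBXN9 libraries, and each of them lay above both controls. The exact permutation test of 2 against 2 libraries gave p = 0.333, two-sided, the smallest it can give, and 0.417 adjusted over the 5 ratios examined. With coding length in place of merged exons the ratio was 5.61 and 4.83 in the UBXN9 libraries and 1.01 and 1.44 in the controls, so transcripts of the subunits were closer to each other in control cells on both scales.

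Tapbp (ENSMUSG00000024308, chromosome 17, 33915899 to 33929292, plus strand) was already abundant in control cells. It had 1216 and 1238 CPM in the UBXN9 libraries and 489 and 467 CPM in the controls. The libraries differed by 1.02-fold in the UBXN9 group and by 1.05-fold in the control group, and the groups did not overlap. Tapbp rose 2.57-fold, with a 95% interval of 1.92 to 3.42 (log2 1.36, SE 0.18, edgeR adjusted p = 0.00536). An antisense gene, Gm19412, shares 904 of the 3628 exon bases of Tapbp. It stood at 9.11 and 6.48 CPM in the UBXN9 libraries and 7.17 and 7.67 CPM in the controls, and did not pass (edgeR adjusted p = 0.927).

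Tapbpl (ENSMUSG00000038213, chromosome 6, 125223933 to 125231860, minus strand) had 54.8 and 42.8 CPM in the UBXN9 libraries and 15.8 and 18.6 CPM in the controls. Both UBXN9 libraries lay above both controls. The rise was 2.84-fold (log2 1.504, SE 0.20, 95% interval of the fold 2.04 to 3.95, edgeR adjusted p = 0.00612). The ratio of Tapbpl to Tapbp per kilobase was 0.0694 and 0.0534 in the UBXN9 libraries and 0.0497 and 0.0615 in the controls. These values overlapped (exact permutation p = 0.667, two-sided), and the difference of the log2 ratio was 0.14, which turned to -0.051 without UBXN9 1 and -0.016 without control 1.

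Erap1 (ENSMUSG00000021583, chromosome 13, 74639568 to 74693201, plus strand), the trimming aminopeptidase, had 22.8 and 28.2 CPM in the UBXN9 libraries and 11.8 and 8.80 CPM in the controls. The groups did not overlap, although the gap between them was the narrowest, in CPM, of the 5 genes that rose. Erap1 rose 2.47-fold, with a 95% interval of 1.68 to 3.63 (log2 1.30, SE 0.24, edgeR adjusted p = 0.0200). The adjusted p was 0.147 without control 2 and 0.0677 with library size alone as the scaling. Cast, which encodes the protease inhibitor calpastatin, shares 834 of the 7280 exon bases of Erap1 on the opposite strand, and had 49.4 and 47.1 CPM in the UBXN9 libraries and 43.3 and 38.9 CPM in the controls (edgeR adjusted p = 0.480). Whether the counting used strand is not given in the sources used here.

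Promoters of the members were also read. RefSeq windows on GRCm38.p6, from 250 bases before to 50 after the start of a gene, covered 6 of the 8 members, Tap1, Tapbp, Erap1, Calr, Canx and Pdia3, and 4 motifs were searched on both strands. The core of the interferon-stimulated response element, which reads GAAA, then 2 bases of any kind, then GAAA, and binds IRF factors, was in the window of Erap1 and of no other member, and in 3.44% of 32851 promoter windows. The element lies across the RefSeq start of Erap1, on the strand opposite to the gene. The GENCODE annotation starts the gene further upstream, at base 74639568, so by that annotation the element lies inside the gene. It is shown in capitals within 30 bases, at chr13:74639839-74639868 on the plus strand.
Erap1: ccaccttcacTTTCACTTTCggtcccgggc

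The element of the endoplasmic reticulum stress response, which reads CCAAT, then 9 bases of any kind, then CCACG, and binds NF-Y with ATF6 or XBP1, was in the windows of Calr and Canx. It was in 0.119% of all promoter windows. Its first base in the window lies 162 bases before the start of Calr, where the element reads on the strand opposite to the gene, and 145 bases before the start of Canx. The stretch before the annotated first exon is shown for both, with the element in capitals, at chr8:84846935-84847181 for Calr and chr11:50325674-50325923 for Canx, each printed along the minus strand that carries the gene.
Calr: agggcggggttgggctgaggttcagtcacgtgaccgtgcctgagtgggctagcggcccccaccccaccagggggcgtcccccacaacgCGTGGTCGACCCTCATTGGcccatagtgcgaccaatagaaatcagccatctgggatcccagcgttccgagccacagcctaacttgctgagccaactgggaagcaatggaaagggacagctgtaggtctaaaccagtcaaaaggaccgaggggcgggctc
Canx: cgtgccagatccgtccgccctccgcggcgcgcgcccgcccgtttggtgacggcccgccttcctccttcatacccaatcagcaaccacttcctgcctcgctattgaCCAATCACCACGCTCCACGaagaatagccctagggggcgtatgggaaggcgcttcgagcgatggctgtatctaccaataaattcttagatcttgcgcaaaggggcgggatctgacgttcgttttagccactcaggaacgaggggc

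The gamma-activated site TTCNNNGAA, which is in 8.30% of windows, and the kB site GGGNNTTCC, which binds NF-kB and is in 5.82%, were in 0 of the 6 windows. Letters outside these windows were not searched, and only these exact letters counted as a match. Longer or variant forms of a site were not looked for, so 0 of 6 does not show that kB or gamma-activated sites are absent. Among the lists examined beside the members, the stress element was in 5 of 16 windows of chaperone and folding genes, Creld2, Dnajc3, Hsp90b1, Hspa5 and Pdia6, and in 0 of 9 of class I chains and Nlrc5. The interferon element was in 3 of those 9, B2m, H2-T22 and H2-T23, and in 0 of the 16. The kB site was in 5 of the 9, H2-D1, H2-K1, H2-Q4, H2-Q6 and H2-Q7, which are close copies, and in 2 of the 16, Creld2 and Edem1. It was also in the windows of Mogs, H2-Aa and Irf2. The gamma-activated site was in 6 of 20 windows of upstream factors, Ifnar1, Ifnar2, Ifng, Irf1, Irf2 and Irf8. It was also in those of H2-M3, Psmb8 and Enpep, and in 0 of the 16. Across the other pathway lists the interferon element was in the windows of Psme1, Irf2, Stat2 and Txndc5, and the stress element in that of Calr4. Of these, Txndc5 was not called (edgeR adjusted p = 0.402). The part of these motifs in the changes was not tested.

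Calr (ENSMUSG00000003814, chromosome 8, 84841850 to 84846934, minus strand), the lectin chaperone of the loading complex, had 1908 and 1481 CPM in the UBXN9 libraries and 1272 and 1409 CPM in the controls. Both UBXN9 libraries lay above both controls, UBXN9 2 by little. Calr did not pass (log2 fold change 0.34, SE 0.21, edgeR adjusted p = 0.424), and the 95% interval of the fold ran from 0.894 to 1.79. The 732 genes tested on chromosome 8 had a median log2 fold change of 0.31, and 8.88% of them rose, against 5.06% of all genes. Nlrc5, Psmb10, Irf2 and Nfix, named in other paragraphs, also lie on chromosome 8. On chromosome 4, which carries Lck, the median was 0.27 and 7.69% rose. The part of these shifts in the values of Calr and of the other genes was not tested.

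Canx (ENSMUSG00000020368, chromosome 11, 50293961 to 50325673, minus strand), the membrane-bound lectin chaperone, had 522 and 320 CPM in the UBXN9 libraries and 385 and 349 CPM in the controls. The UBXN9 libraries lay on either side of the controls and differed from each other by 1.63-fold. Canx did not pass (log2 fold change 0.20, SE 0.25, edgeR adjusted p = 0.721, 95% interval of the fold 0.764 to 1.72). Leaving out UBXN9 1 turned the log2 fold change to -0.19, leaving out UBXN9 2 made it 0.51, and neither passed.

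Pdia3 (ENSMUSG00000027248, chromosome 2, 121413775 to 121438687, plus strand), the disulfide isomerase that binds tapasin, had 392 and 367 CPM in the UBXN9 libraries and 423 and 394 CPM in the controls. Both UBXN9 libraries lay slightly below both controls. Pdia3 did not pass (log2 fold change -0.11, SE 0.16, edgeR adjusted p = 0.781), and the 95% interval of the fold ran from 0.712 to 1.21. Of the 8 members, 6 had both UBXN9 libraries above both controls, 1 had both below, and 1 overlapped. Over all genes tested, 25.0% had both UBXN9 libraries above both controls, and 50.6% had them on one side.

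Ratios within a library do not depend on how libraries are scaled. Pdia3 per kilobase stood at 0.456 and 0.608 of the level of Hspa5, the abundant chaperone BiP, in the UBXN9 libraries and at 0.820 and 0.799 in the controls. The same ratio for Canx was 0.406 and 0.355 in the UBXN9 libraries and 0.499 and 0.473 in the controls. For Calr it was 2.42 and 2.67 in the UBXN9 libraries and 2.68 and 3.12 in the controls. The UBXN9 libraries lay below the controls in each of these ratios, with p = 0.333 by the exact permutation test, the smallest it can give, and 0.417 adjusted over the 5 ratios. These ratios share Hspa5 as denominator, so they are not independent of each other. For Calr the gap was narrow, 2.67 against 2.68. Hspa5 itself had 1159 and 813 CPM in the UBXN9 libraries and 696 and 664 CPM in the controls. It did not pass (log2 fold change 0.54, edgeR adjusted p = 0.220), although it did without UBXN9 2 (edgeR adjusted p = 0.00980).

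**Figure D2:**
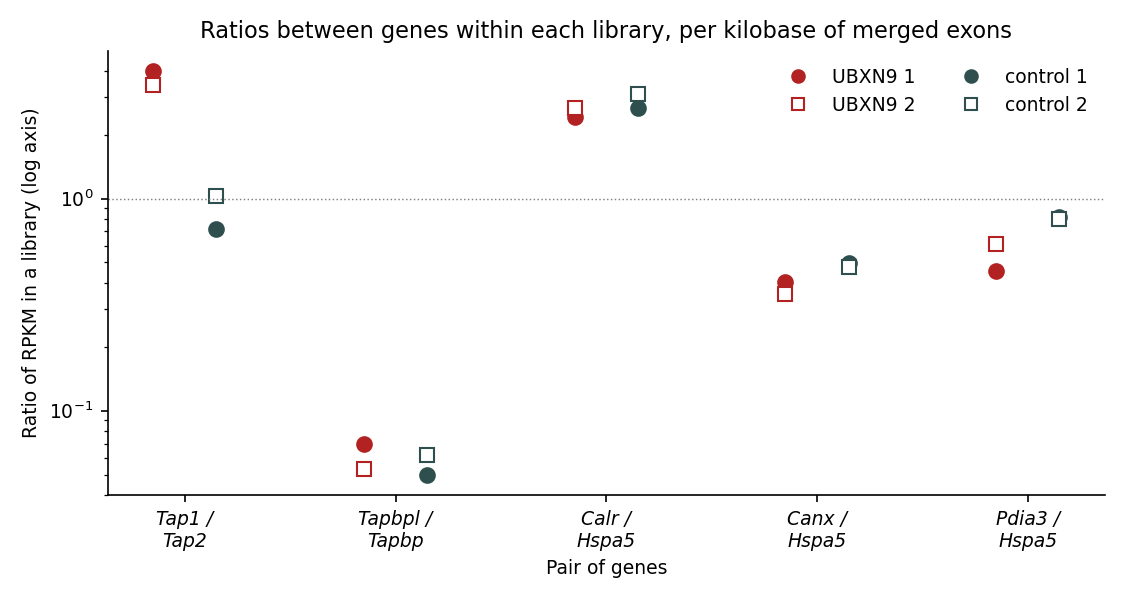
Ratios of 2 genes per kilobase of merged exons within each library, on a log axis, with UBXN9 libraries in red and control libraries in dark grey. Tap1 over Tap2 is 3.997 and 3.44 in the UBXN9 libraries and 0.722 and 1.03 in the controls. The chaperones over Hspa5 lie lower in the UBXN9 libraries, Calr by little, and share that denominator.

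The order of the transcripts per length also differed between the groups. In UBXN9-overexpressing cells Calr came first with 588 ± 105 CPM per kilobase (RPKM, SD, n = 2), then Tapbp with 338 ± 4.30, Pdia3 with 121 ± 5.73, Canx with 89.7 ± 30.3, Tap1 with 87.7 ± 13.5, Tap2 with 23.5 ± 1.12, Tapbpl with 20.7 ± 3.58 and Erap1 with 3.50 ± 0.521. Canx and Tap1 overlapped in that order, as did Tap2 and Tapbpl. In control cells the order was Calr with 465 ± 33.7 RPKM, Tapbp with 132 ± 4.28, Pdia3 with 130 ± 6.73, Canx with 78.2 ± 5.47, Tapbpl with 7.31 ± 0.868, Erap1 with 1.42 ± 0.294, Tap2 with 1.29 ± 0.369 and Tap1 with 1.09 ± 0.0434. Tapbp overlapped Pdia3, and Tap2 overlapped both Erap1 and Tap1, while both Erap1 libraries lay above both Tap1 libraries. Tap1 thus had rank 5 of the 8 in UBXN9-overexpressing cells and rank 8 in control cells. With coding length its ranks were 5 in UBXN9-overexpressing cells and 7 in control cells, and with the longest transcript 4 and 7.

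Genes that start within 100 kb of the members were also read. Psmb9 and Psmb8, immunoproteasome subunits, start 211 and 10168 bases downstream of the start of Tap1, and Tap2 starts 15974 bases downstream. Psmb9 had 1944 and 1854 counts in the UBXN9 libraries and 13 and 2 in the controls, and Psmb8 had 218 and 196 counts in the UBXN9 libraries and 1 and 0 in the controls. Both passed (edgeR adjusted p = 0.000262 and 0.000588). Psmb9 had a log2 fold change of 8.05, against 9.75 without control 1 and 7.38 without control 2. Psmb9 shares 212 of the 5476 exon bases of Tap1 on the opposite strand. On the far side of Tap1, H2-DMa, a class II loading gene 68012 bases upstream, had 5.23 and 3.20 CPM in the UBXN9 libraries and 1.60 and 1.54 CPM in the controls and did not pass (log2 fold change 1.41, edgeR adjusted p = 0.0651). It passed without a filter on low counts (edgeR adjusted p = 0.00255) and without UBXN9 2 (edgeR adjusted p = 0.000288). Brd2, a bromodomain gene 64919 bases upstream, had 432 and 462 CPM in the UBXN9 libraries and 430 and 428 CPM in the controls and did not pass (edgeR adjusted p = 0.891).

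Near Tapbp, 3 of 16 tested genes rose and 0 fell. Daxx, a histone chaperone gene that starts 6485 bases upstream of the start of Tapbp, had 432 and 428 CPM in the UBXN9 libraries and 127 and 116 CPM in the controls, a 3.53-fold rise (edgeR adjusted p = 0.00109). BC051226, a noncoding gene that starts 6582 bases upstream, rose 2.84-fold (edgeR adjusted p = 0.0202, and 0.0720 without control 2). H2-K1, 84448 bases downstream, rose 27.9-fold. Between Tapbp and H2-K1, Rgl2, Wdr46, Vps52, the ribosomal protein gene Rps18 and the others tested did not pass. Over all genes tested, 5.06% rose and 2.38% fell. Of the 46 genes tested within 100 kb of the 8 members, other than members, 6 rose and 1 fell. The sixth that rose was Nfix near Calr, which lost its call in 5 alternatives at the same threshold, and the one that fell was Ncapd2, a condensin gene near Tapbpl (edgeR adjusted p = 0.0227, and 0.260 without control 2). Leaving out control 2 gave 4 called neighbours, leaving out UBXN9 1 gave 11 and leaving out UBXN9 2 gave 15. No tested neighbour of Erap1, Canx or Pdia3 passed, out of 1, 2 and 7, where 7.44% of all genes tested were called. With so few genes, 0 is near that share.

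**Figure D3:**
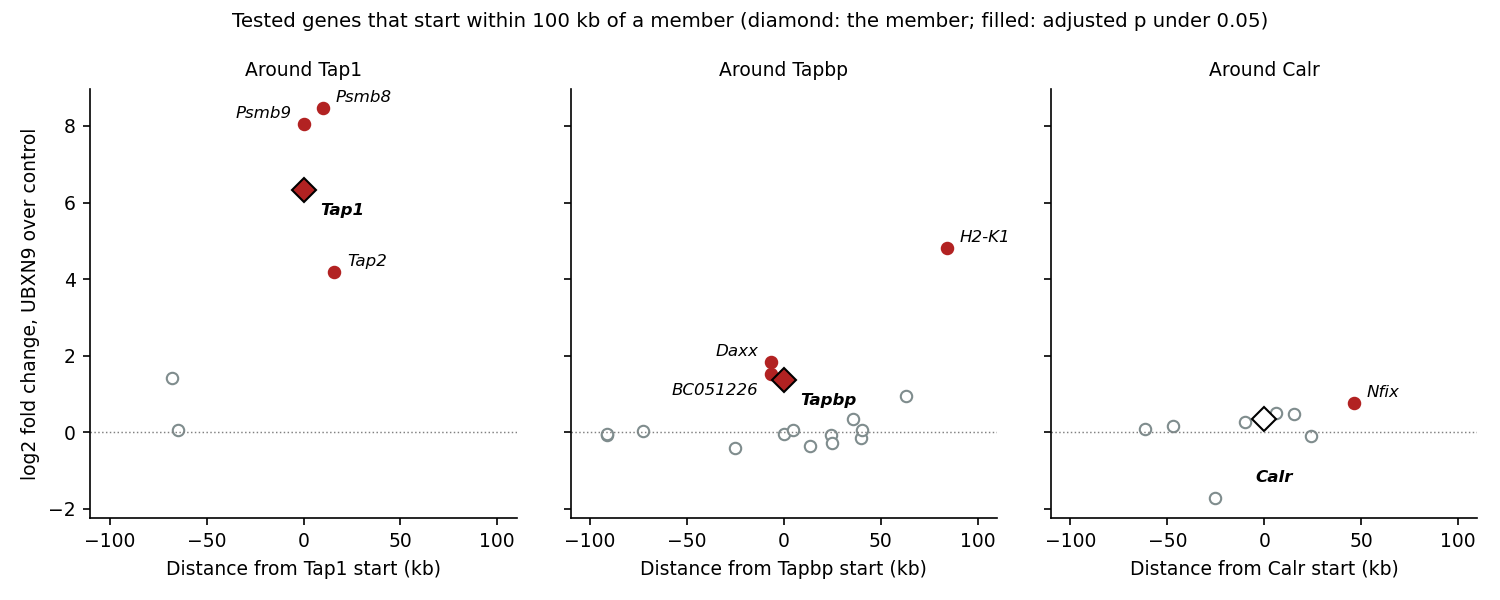
Log2 fold change, UBXN9 over control, of tested genes that start within 100 kb of Tap1, Tapbp and Calr, against the distance between starts along the strand of the member. Diamonds are the members and filled symbols have an adjusted p under 0.05, as for Psmb9 at 8.05, Psmb8 and Tap2 at 4.18 beside Tap1. The value of Psmb8 rests on 1 control count and its size depends on the model.

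By the distance of log2(CPM + 1) profiles over the 4 libraries, centred on the control mean, the genes of at least 5 CPM nearest to Tap1 were Psmb9, the interferon-inducible GTPase gene Gm12250 and Nlrc5, at distances of 0.311, 0.850 and 1.24. Nearest to Tap2 were Tgtp2, Ifit3 and Igtp, at 0.0218, 0.105 and 0.155, all known as interferon-induced genes. The nearest to Tapbp were Cp, Dysf and Vwa5a, at 0.0464, 0.0874 and 0.0899. Those of Tapbpl were Trex1, Pnp and Serpina3g, at 0.0892, 0.0908 and 0.123, and those of Erap1 were Pnpt1, Elmod2 and Asb13, at 0.0864, 0.104 and 0.126. With 4 libraries such closeness rests mostly on the size of the change after 1 CPM is added. Psmb9 had 0.496 and 0.0907 CPM in the controls, where the added 1 CPM lowers that size. Its log2 fold change of 8.05 therefore lay near the 6.33 of Tap1 by this distance. Elmod2, Asb13, Pnpt1 and Dysf lost their calls without control 2.

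Other steps of class I presentation were read from lists chosen for their role, also with earlier results of these data known. Of 11 class I chain genes and their transactivator, 9 were tested, and 9 rose, where 5.06% of all genes tested rose. Their median log2 fold change was 2.21. The count was also 9 by DESeq2, 8 by limma-voom or with upper-quartile factors, 7 with library size alone as the scaling and 6 at an adjusted p under 0.01. The closest to the threshold was H2-T23, with 65.8 and 50.1 CPM in the UBXN9 libraries and 31.5 and 33.4 CPM in the controls (edgeR adjusted p = 0.0453). H2-Q6 and H2-Q7, which were not tested, had at most 19 counts in any library. H2-K1, a heavy chain gene, had 74.9 and 55.3 CPM in the UBXN9 libraries and 2.21 and 2.45 CPM in the controls, and H2-D1, another, had 1001 and 826 CPM against 96.0 and 95.5 CPM. Nlrc5, which activates class I genes, had 114 and 179 CPM in the UBXN9 libraries and 2.98 and 2.00 CPM in the controls, and H2-T22 rose 3.85-fold. B2m, the light chain, had 3249 and 1261 CPM in the UBXN9 libraries and 438 and 537 CPM in the controls. B2m rose by 2.21 on the log2 scale (edgeR adjusted p = 0.0259), and by 1.37 without UBXN9 1, where it also passed. Heavy chain genes are close copies, so how reads were split between them is uncertain.

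Of 10 proteasome and activator subunits, 5 rose and 0 fell, where 5.06% of all genes tested rose and 2.38% fell. At an unadjusted p under 0.05, by DESeq2 and by limma-voom the counts of subunits were the same. Those that rose were Psmb8, Psmb9 and Psmb10 of the immunoproteasome and Psme1 and Psme2 of its activator. Psmb10 had 608 and 462 CPM in the UBXN9 libraries and 79.9 and 88.7 CPM in the controls. Psme1 had 425 and 326 CPM against 170 and 189 CPM, and its adjusted p was 0.108 without control 1 and 0.0676 without control 2. The constitutive subunits Psmb5, Psmb6 and Psmb7 overlapped between the groups and were not called (log2 0.054, 0.15 and 0.15). Among 8 cytosolic peptidases, which shorten peptides before transport, 0 passed with edgeR, 2 were higher at an unadjusted p under 0.05, and DESeq2 called 1 and limma-voom 0. Their median log2 fold change was 0.054. Over all genes tested 7.44% were called, so 0 of 8 is near that share.

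Among 20 chaperones, folding enzymes and stress regulators of the endoplasmic reticulum, 1 rose and 0 fell with edgeR, where 3 were higher and 0 lower at an unadjusted p under 0.05. DESeq2 called 2 higher and 0 lower, and limma-voom 1 and 0. The median log2 fold change was 0.17. These edgeR counts were near the share of all genes tested, of which 5.06% rose and 2.38% fell. The member that rose was Ddit3, a stress transcription factor and not a chaperone, with 91.8 and 72.5 CPM in the UBXN9 libraries and 40.2 and 43.4 CPM in the controls (edgeR adjusted p = 0.0212, 0.121 without control 1 and 0.103 without control 2). Hsp90b1, the chaperone GRP94, had 190 and 202 CPM in the UBXN9 libraries and 279 and 227 CPM in the controls and did not pass (log2 fold change -0.37, edgeR adjusted p = 0.270). Of 8 genes of glycan trimming and glycoprotein quality control, 0 passed with edgeR, with 1 higher and 1 lower at an unadjusted p under 0.05, 1 higher by DESeq2 and 0 by limma-voom. That edgeR count too was near the share of all genes tested. Calr, Canx and Pdia3, with log2 fold changes from -0.11 to 0.34, lay within the range of the chaperone list, which ran from -0.37 to 0.98. The upper end of that range is Ddit3, and the chaperone gene Hspa5 stood at 0.54.

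Of 11 close relatives of the members tested, 0 were called by edgeR, DESeq2 or limma-voom, and 2 were higher at an unadjusted p under 0.05. Over all genes tested 7.44% were called, so 0 of 11 is near that share. Leaving out UBXN9 2 gave 2 called. Abcb9, which encodes the TAP-like transporter, had 6.42 and 4.86 CPM in the UBXN9 libraries and 3.13 and 3.18 CPM in the controls (log2 fold change 0.84, edgeR adjusted p = 0.144). Of 7 class II genes 2 were deep enough to test and 0 passed with edgeR, DESeq2 or limma-voom, with 1 higher at an unadjusted p under 0.05. With 2 genes tested, 0 is also near the share of all genes. Those tested were H2-DMa, given above, and Cd74, the invariant chain, with 11.05 and 9.73 CPM in the UBXN9 libraries and 7.33 and 9.39 CPM in the controls (edgeR adjusted p = 0.531). The class II transactivator Ciita had at most 6 counts in any library.

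Of 23 tested genes for factors that act upstream of class I transcription, 9 rose and 0 fell, against 10 higher and 1 lower at an unadjusted p under 0.05, 9 higher and 0 lower by DESeq2 and 9 and 1 by limma-voom. The count higher was 5 without control 2 and also 5 with library size alone as the scaling. Irf1, a factor known to activate Tap1, had 463 and 381 CPM in the UBXN9 libraries and 115 and 116 CPM in the controls (log2 fold change 1.87, SE 0.17, edgeR adjusted p = 0.00136). Irf7 and Stat2, factors of the interferon response, also rose (log2 2.64 and 1.58, edgeR adjusted p = 0.000389 and 0.00230). Over the 8 lists together, without the members, 24 of 90 tested genes rose and 0 fell. The same counts were 33 and 2 at an unadjusted p under 0.05, 27 and 0 by DESeq2 and 23 and 1 by limma-voom. Over all genes tested, 5.06% rose and 2.38% fell with edgeR.

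**Figure D4:**
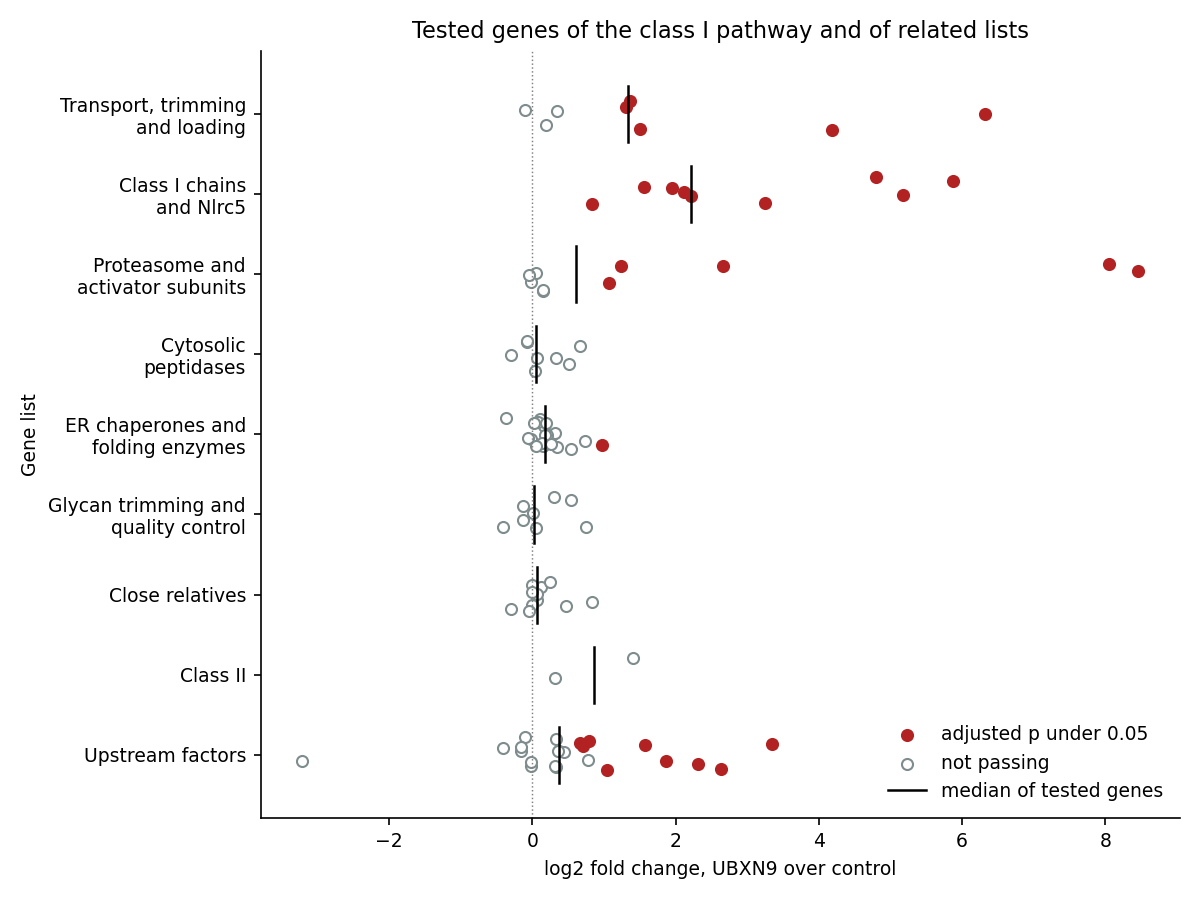
Log2 fold change, UBXN9 over control, of the tested genes of each list, with filled points for an adjusted p under 0.05 and a bar at the median. Transport, trimming and loading genes split into 5 filled points from 1.30 to 6.33 and 3 open points from -0.11 to 0.34. The largest value, of Psmb8, rests on 1 control count.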

How the data were processed

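Illumina TruSeq libraries of total RNA were sequenced, per the labels' protocols. The deposited table holds estimated counts for each gene, with library totals that differ. Alignment and counting tools are HISAT2 2.1.0 and HTSeq, with the build GRCm38.p6, in the submitters' processing notes, which hold no settings here, and the strand setting is not given in the sources used here. Counts were rounded to whole numbers, and 241 of 55728 entries outside the annotation were left out. Of 55487 annotated identifiers 55227 were in GENCODE M21 (GRCm38), which gave positions, lengths and overlaps. The test between groups of 2 libraries used edgeR 4.0.16 under R 4.3.3 (TMM, filterByExpr, quasi-likelihood F test, two-sided, Benjamini-Hochberg over 13230 genes), tested on simulated data. RPKM is CPM divided by merged exon length. Standard errors were derived from the fold change and its F statistic, and 95% intervals from these with the t distribution on the degrees of freedom of the fit.

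The members and lists were chosen with earlier results of these data known. Named genes were the 8 members, up to 4 called genes of each list by smallest p, a fixed set (Aspscr1, Hspa5, Hsp90b1, B2m, H2-K1, H2-D1, Psmb8, Psmb9, Nlrc5, Irf1 and a gene not reported here), tested genes within 100 kb of a member, and the 3 nearest profiles of each called member. Other list genes with values, such as Abcb9, Cd74, Ciita, H2-T23, the H2-Q genes, Psme2 and the constitutive proteasome subunits, were named after their values were seen, as were the marker genes. The 3 genes with 2 symbols (Nrdc, Ero1a and Ero1b) were matched by their older ones. Alternatives were other scalings and filters, DESeq2 1.42.0, limma-voom (limma 3.58.1), a robust prior, a replicate block, an adjusted p under 0.01 and leaving out each library. Figures were drawn with matplotlib 3.10.9.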

Additional observations from a re-analysis of the deposited data

How the results depend on the processing

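Tap1, Tap2, Tapbp and Tapbpl rose under every alternative, with log2 fold changes of 6.16 to 6.47, 3.92 to 4.50, 1.27 to 1.39 and 1.32 to 1.67 outside the crossed block below. Their highest adjusted p was 0.000951, 0.00257, 0.0439 and 0.0131, each against the threshold of 0.05. Erap1 kept its direction (1.11 to 1.53) but did not pass at an adjusted p under 0.01 (1.30), without composition factors (1.21) or without control 2 (1.11). Calr, Canx and Pdia3 passed under none of these, and the sign of Canx turned without UBXN9 1. The cause of these differences was not tested.

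Of all genes, 984 were called, 398 at an adjusted p under 0.01, 1827 without a filter, and 508 to 2782 with 1 library left out. The stricter threshold gave 13 of the listed pathway genes in place of 24, and 4 neighbours in place of 7, with 4 to 15 when 1 library was left out. With a library left out, the lone one was given the spread of the other group. Libraries with the same replicate number deviated in opposite directions (r = -0.373 across 13230 genes), so the numbers were not taken as pairs. A replicate block gave 932 called genes, with 5 members, 21 pathway genes and 5 neighbours among them. A crossed block, chosen after seeing the data as were the ratios with 1 library left out, gave 3137 called genes, with 39 pathway genes, 18 neighbours and 6 members, Calr (0.33) being the sixth. Depth limits H2-Q6, H2-Q7 and most class II genes, which were too low to test.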
